A study of Mus musculus with 12 samples.

Results

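The 10 genes described here encode the muscle acetylcholine receptor and the proteins that gather it into synaptic clusters. They are the receptor subunit genes Chrna1, Chrnb1, Chrnd, Chrng and Chrne and the clustering genes Rapsn, Musk, Lrp4, Dok7 and Agrn. The genes were given as a list of names, and all 10 were found among the 37287 gene IDs that both deposited count tables hold. RNA selected for poly(A) was sequenced from mouse embryonic fibroblasts labelled MyoD-/-; Myf5-/-, so every group, controls included, lacks both muscle-determining transcription factors by its label. The cells were infected with lentivirus for 24 h, moved to a low-serum differentiation medium and harvested 20 h later. In the first table, 5 libraries had a GFP virus, 4 of them at a multiplicity of infection (MOI, viral particles per cell) of 15, 30, 60 and 120 and 1 at the 1x dose, with 1 untransduced library. It also held MyoD and Myf5 virus, each with 1 library at 1x and 1 at 2x. The second table held 1 library with a 1x virus labelled Chimera, a protein the labels do not describe further, and 1 with 1x MyoD from a second virus batch. Which promoter drove each factor and what share of cells took up the virus are likewise not stated, so each value is an average over infected and uninfected cells. In such bulk RNA, fewer cells that express a gene and less RNA per cell cannot be told apart.

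The receptor is a ring of alpha, beta and delta subunits with either gamma, the fetal subunit encoded by Chrng, or epsilon, the adult subunit encoded by Chrne. At the neuromuscular junction, agrin released by the motor nerve binds Lrp4, which activates the receptor tyrosine kinase MuSK. Dok7 is the adaptor that binds MuSK inside the cell and keeps it active, and rapsyn, encoded by Rapsn, anchors the receptors side by side. Developing muscle switches on fetal receptor genes before a nerve arrives, and the exchange of gamma for epsilon follows innervation. MyoD and Myf5 bind DNA at the E-box, a 6-base motif whose letters are CANNTG.

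The promoter windows of 4 subunit genes are shown because the fetal and the adult subunit gene differed widely in level in these cells, and because Chrna1 and Chrnb1 differed in their values with Myf5. Each window runs from 250 bases before to 50 bases after a transcription start in RefSeq (build GRCm38.p6), 300 bases in all, written 5' to 3' on the strand of the gene. Capitals mark every E-box, and positions below are those of the first base of the motif, counted in bases back from the transcription start. The count tables were made on mm9, so these windows are not tied to the coordinates behind the counts. The Chrng window lies at chr1:87205561-87205860 on the plus strand, and those of Chrne (chr11:70619145-70619444), Chrna1 (chr2:73580289-73580588) and Chrnb1 (chr11:69795888-69796187) lie on the minus strand.
Chrng: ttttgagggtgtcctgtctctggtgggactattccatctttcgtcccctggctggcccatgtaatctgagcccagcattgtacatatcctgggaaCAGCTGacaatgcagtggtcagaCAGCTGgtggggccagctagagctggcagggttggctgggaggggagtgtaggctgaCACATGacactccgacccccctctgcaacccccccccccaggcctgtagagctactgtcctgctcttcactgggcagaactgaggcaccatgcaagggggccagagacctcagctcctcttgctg
Chrne: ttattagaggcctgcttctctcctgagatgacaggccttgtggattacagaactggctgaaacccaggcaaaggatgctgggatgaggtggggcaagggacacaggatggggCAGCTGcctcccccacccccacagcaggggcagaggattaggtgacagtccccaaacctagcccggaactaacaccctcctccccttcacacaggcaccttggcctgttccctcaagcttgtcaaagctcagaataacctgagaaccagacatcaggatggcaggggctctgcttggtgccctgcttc
Chrna1: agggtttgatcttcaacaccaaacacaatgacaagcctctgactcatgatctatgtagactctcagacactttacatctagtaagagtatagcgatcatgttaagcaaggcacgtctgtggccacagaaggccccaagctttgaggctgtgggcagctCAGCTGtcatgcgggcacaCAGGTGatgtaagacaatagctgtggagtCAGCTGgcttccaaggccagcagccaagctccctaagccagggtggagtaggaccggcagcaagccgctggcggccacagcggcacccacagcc
Chrnb1: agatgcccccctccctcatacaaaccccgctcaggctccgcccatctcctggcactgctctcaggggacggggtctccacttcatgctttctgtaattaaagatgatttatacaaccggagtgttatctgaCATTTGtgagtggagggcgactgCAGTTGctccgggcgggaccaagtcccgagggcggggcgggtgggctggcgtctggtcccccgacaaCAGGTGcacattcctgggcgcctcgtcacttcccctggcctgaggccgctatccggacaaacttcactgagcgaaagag

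The Chrng window held 3 E-boxes, of which 2 had the letters CAGCTG (at -155 and -132) and 1 had CACATG (at -75). The Chrna1 window also held 3, CAGCTG at -92 and -44 and CAGGTG at -73. The Chrnb1 window held CATTTG at -119, CAGTTG at -96 and CAGGTG at -29, and no CAGCTG. The Chrne window held a single E-box, CAGCTG at -138. Over the 32851 promoter windows in the RefSeq table, 16.3% held at least 1 CAGCTG, 1.90% held at least 2, and 17.6% held at least 3 E-boxes of any kind. E-boxes read the same on both strands as CANNTG, and CAGCTG is 1 form of it, so these counts overlap. The Chrne window also held 1 CCGGAA, the core of the N-box known from receptor promoters, which occurred on either strand in 14.9% of windows. Of the 10 genes, 7 had an entry in the table, with 9 windows between them. Musk had 3 E-boxes, 1 of the 2 Dok7 windows had 1 and 1 of the 2 Agrn windows had 1. A match of letters is a description of the window and was not tied to binding.

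Levels are given in CPM, the usual unit of counts scaled to a common library total. Total counts, in M (mega), were 17.9 to 22.4 M in the 4 MOI libraries, 68.3 to 81.5 M in the other 6 libraries of the first table, and 25.1 and 23.7 M for Chimera and second-batch MyoD. Myod1 stood at 5.21 to 5.99 CPM in the first-table libraries without MyoD virus and at 309 and 617 CPM with 1x and 2x MyoD. In the same table Myf5 stood at 11.9 to 24.4 CPM without Myf5 virus and at 150 and 249 CPM with 1x and 2x Myf5. In the second table, the Chimera library held Myf5 at 165 CPM and Myod1 at 22.1 CPM, and second-batch MyoD held them at 14.7 and 324 CPM. Gene-level counts do not show which part of a gene the reads came from, so the low values in the null cells do not test the deletions. The fibroblast label was checked with 10 markers such as Col1a1 and Pdgfra, all above 1 CPM, whose summed level was 24738 to 27849 CPM with GFP, 17945 to 21326 with Myf5 and 12824 to 17680 with MyoD. The sum of 10 skeletal muscle markers, among them Myog and Actc1, was 1.42 to 3.39 CPM with GFP, 40.2 to 122 with Myf5 and 786 to 2278 with MyoD. The share of cells that had become muscle-like was not measured, and its part in the results below was not tested.

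Chrng, the fetal gamma subunit (ENSMUSG00000026253.7), had the highest CPM of the 10 genes in every MyoD and Myf5 library. It stood at 2.23, 1.62, 1.88 and 1.65 CPM at an MOI of 15, 30, 60 and 120 and at 1.96 CPM in 1x GFP. With MyoD it reached 220.2 CPM at 1x and 381 CPM at 2x, and with Myf5 85.0 and 154 CPM. Every Myf5 library lay above every GFP library, as for 15% of all genes tested, and both MyoD libraries lay above both Myf5 libraries, as for 29.9%. In edgeR's quasi-likelihood test with Benjamini-Hochberg adjustment over 13825 genes, the log2 fold change against GFP was 7.37 ± 0.28 (SE) for MyoD (adjusted p = 3.7e-06) and 6.01 ± 0.27 for Myf5 (adjusted p = 2.7e-05).

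Chrnd, the delta subunit (ENSMUSG00000026251.6), was close to the detection limit in control cells. Its values were 0.101, 0, 0.358 and 0.299 CPM along the MOI series and 0.405 CPM in 1x GFP, 49 counts over the 5 libraries. MyoD brought it to 84.4 and 149 CPM at 1x and 2x and Myf5 to 32.1 and 52.7 CPM. The groups were ordered as for Chrng, with no overlap between them. The log2 fold change was 8.68 ± 0.41 for MyoD (edgeR adjusted p = 8.3e-06) and 7.20 ± 0.41 for Myf5 (adjusted p = 8.1e-05). The ratio of Chrng to Chrnd counts was 2.61 and 2.56 with MyoD and 2.65 and 2.91 with Myf5, so both genes kept nearly the same proportion at both doses of both factors. In GFP cells, where Chrnd had 0 to 33 counts, that ratio was 4.85 to 22.0 in the 4 libraries that had any.

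Chrnb1, the beta subunit (ENSMUSG00000041189.9), was already expressed without a muscle factor. It stood at 5.72, 6.55, 7.60 and 6.88 CPM along the MOI series and at 4.71 CPM in 1x GFP. MyoD brought it to 48.4 and 78.8 CPM and Myf5 to 34.0 and 53.6 CPM. Unlike Chrng and Chrnd, its MyoD and Myf5 libraries overlapped, since 2x Myf5 lay above 1x MyoD. The log2 fold change against GFP was 3.41 ± 0.23 for MyoD (edgeR adjusted p = 4e-05) and 2.85 ± 0.23 for Myf5 (adjusted p = 0.00057).

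Chrna1, the alpha subunit that carries most of the acetylcholine binding surface (ENSMUSG00000027107.3), was the 1 subunit gene of the 4 tested that did not pass the test with Myf5. Its GFP values were 1.92, 1.81, 2.37 and 1.07 CPM along the MOI series and 2.12 CPM at 1x. MyoD gave 4.77 CPM at 1x and 15.0 CPM at 2x, both above every GFP library. Myf5 gave 0.937 and 1.18 CPM, within or below the GFP range. The log2 fold change was 2.45 ± 0.39 for MyoD (edgeR adjusted p = 0.0017) and -0.80 ± 0.46 for Myf5 (adjusted p = 0.27). Its deposited counts were not whole numbers in 9 of the 10 first-table libraries, the only one of the 10 genes for which this was so, which leaves the reads assigned to it uncertain.

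Chrne, the adult epsilon subunit (ENSMUSG00000014609.9), stayed at or near 0 with every virus. Over the first table it had 3 counts in all, 2 in 1x GFP (0.0245 CPM) and 1 in 1x MyoD (0.0124 CPM), and the other 8 libraries had 0. A count of 0 allows up to 3 counts, which is 0.0391 CPM in 2x MyoD, 0.0439 and 0.0438 CPM in the Myf5 libraries and 0.134 to 0.168 CPM in the MOI libraries, for counting error only. In the second table it had 1 count with Chimera (0.0399 CPM) and 0 with second-batch MyoD. It did not reach the filter of 1 CPM in at least 2 libraries, so the main fit across genes left it out. In the fit without a filter on low counts it was not called. That fit gave -0.59 ± 1.51 on the log2 scale with MyoD (edgeR adjusted p = 0.84) and -2.48 ± 1.83 with Myf5 (0.53).

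**Figure D1:**
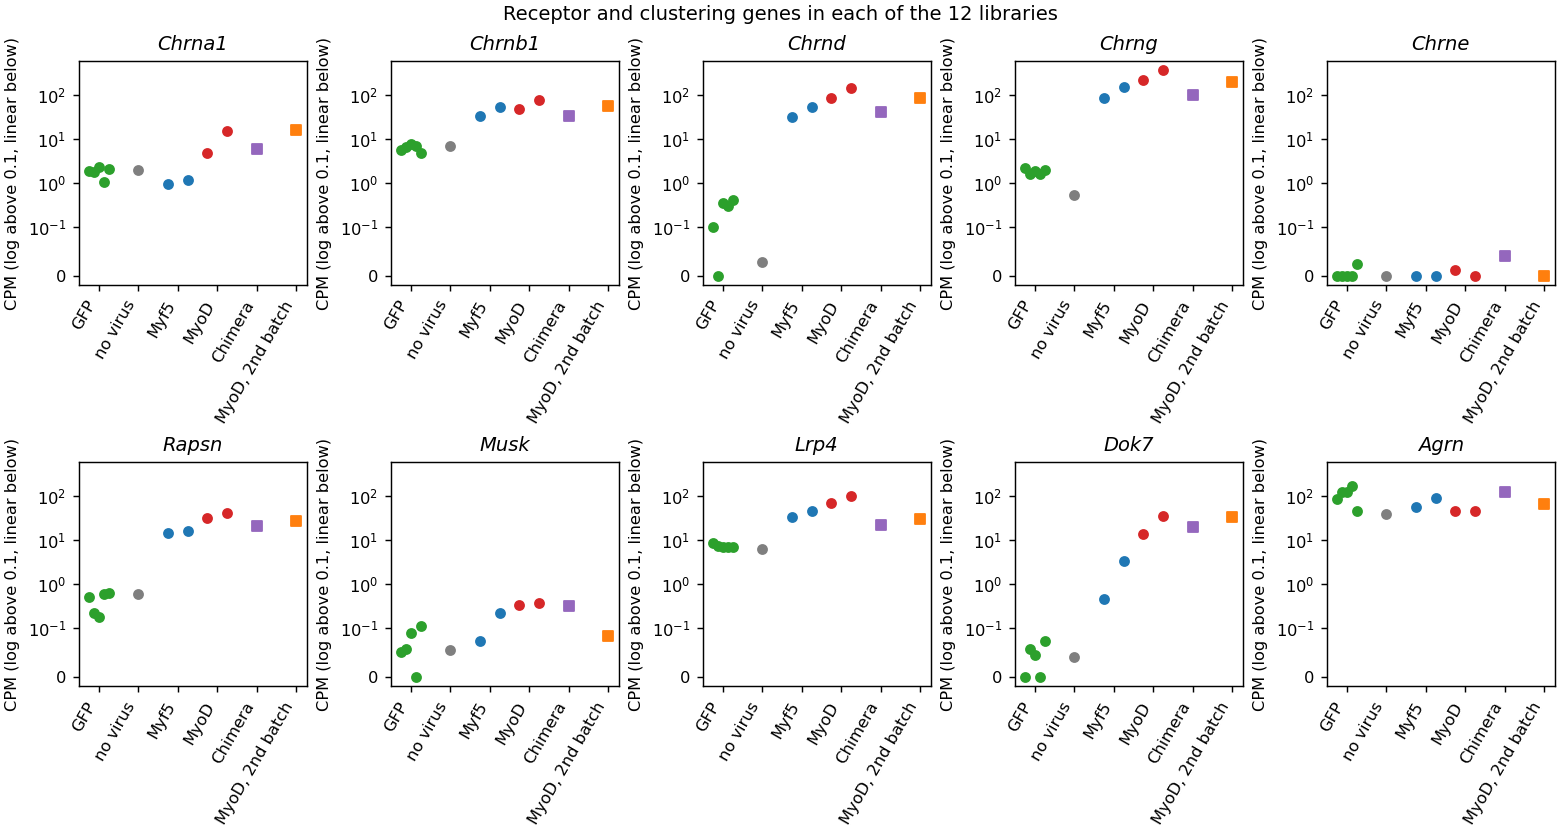
CPM of the 10 genes (vertical axis, logarithmic above 0.1 and linear below) in each of the 12 libraries, 1 point a library, grouped along the horizontal axis by virus, with squares for the second table. Chrng lies at 85.0 CPM or more with Myf5 and MyoD and at 2.23 CPM or less in the controls, whereas Chrne stays at or near 0 throughout.

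The balance of fetal over adult subunit was therefore far on the fetal side in every group with a muscle factor. Per kilobase of annotated exon, Chrng exceeded Chrne 19088-fold in the summed MyoD libraries, with an exact 95% interval of 3426 to 753956 that covers counting error only and rests on 1 Chrne count. In the Myf5 libraries it was at least 2209-fold higher, computed against a floor of 3 Chrne counts over the group. In the GFP libraries the ratio was 62.5 (17.2 to 519), from 308 Chrng and 2 Chrne counts, and in the untransduced library it was at least 5.28. On a log2 scale with 0.1 CPM added to both genes, the ratio averaged 11.42 in MyoD, 10.16 in Myf5 and 4.23 in GFP libraries. Because Chrne was at or near 0 in every library, this ratio moved with Chrng alone. The difference from GFP was 7.19 for MyoD and 5.93 for Myf5, each with an exact two-sided permutation p = 0.0476 (n = 2 against 5), the smallest that 21 arrangements can give. MyoD exceeded Myf5 by 1.26, for which 2 libraries against 2 cannot give an exact permutation p below 0.333.

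The makeup of the subunit mRNA also differed between groups, as the plot of subunit shares by library shows. Summed over the 5 subunits, the level per kilobase was 2.95 to 4.10 CPM with GFP, 98.8 and 171 CPM with 1x and 2x MyoD, and 43.8 and 74.4 CPM with Myf5. In GFP cells Chrnb1 made up 63.0% to 78.8% of that sum and Chrng 11.0% to 16.4%. With MyoD, Chrng made up 53.5% and 53.4%, Chrnd 26.0% and 26.4% and Chrnb1 19.4% and 18.2% at 1x and 2x. With Myf5, Chrng made up 46.6% and 49.6%, whereas Chrnb1 took 30.6% and 28.5% and lay above Chrnd at 22.3% and 21.6%. No share differed as much between the doses of a factor as that of Chrnb1 did between the factors. Chrna1, whose first-table counts were mostly not whole numbers, took 1.10% and 2.00% with MyoD and 0.488% and 0.360% with Myf5. In the second table, where its counts were whole, it took 2.70% with Chimera and 3.66% with second-batch MyoD. In the receptor itself alpha is the most numerous subunit. With the length of the principal transcript in place of all exons the order of the subunits was the same in every MyoD, Myf5 and second-table library, while Chrng moved above Chrna1 in 3 GFP libraries.

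**Figure D2:**
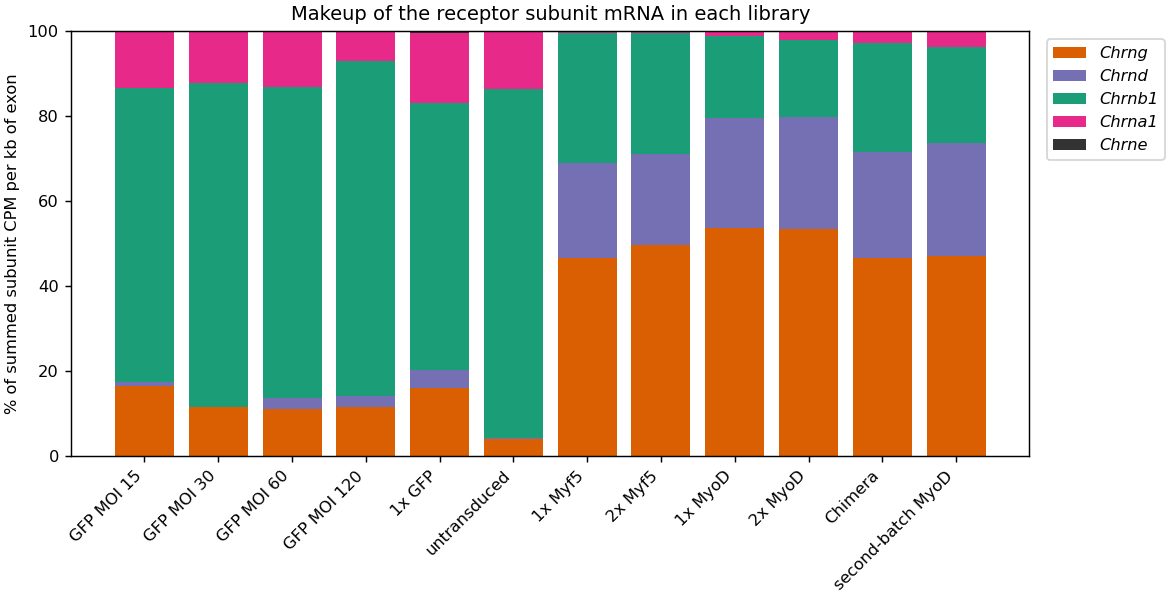
Share of each subunit gene in the summed subunit level per kilobase of exon (vertical axis, percent) in each of the 12 libraries (horizontal axis), with 1 stacked bar a library. Chrnb1 makes up most of the sum in GFP and untransduced cells, and Chrng is the main part with MyoD, Myf5 and Chimera.

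Of the clustering genes, Rapsn, which encodes the scaffold rapsyn (ENSMUSG00000002104.5), followed the subunits. It stood at 0.506, 0.224, 0.179 and 0.598 CPM along the MOI series and at 0.638 CPM in 1x GFP. MyoD brought it to 32.0 and 41.6 CPM and Myf5 to 14.9 and 16.0 CPM, with no overlap between the groups. The log2 fold change was 6.31 ± 0.28 for MyoD (edgeR adjusted p = 8.2e-06) and 5.03 ± 0.28 for Myf5 (adjusted p = 8.1e-05).

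Lrp4, the agrin receptor (ENSMUSG00000027253.8), started from a higher level. Its GFP libraries held 8.51, 7.56, 7.06 and 7.08 CPM along the MOI series and 7.18 CPM at 1x, the narrowest relative spread of the genes that were detected in every GFP library. MyoD gave 70.3 and 101 CPM and Myf5 34.4 and 45.1 CPM, again without overlap. The log2 fold change was 3.58 ± 0.15 for MyoD (edgeR adjusted p = 5.4e-06) and 2.44 ± 0.15 for Myf5 (adjusted p = 0.00012).

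Dok7, the cytoplasmic activator of MuSK (ENSMUSG00000044716.5), had the largest fitted difference between the factors of the 8 tested genes. Its GFP values were 0, 0.0560, 0.0447 and 0 CPM along the MOI series and 0.0736 CPM at 1x, 8 counts in all. MyoD gave 14.2 CPM at 1x and 34.8 CPM at 2x, whereas Myf5 gave 0.469 and 3.39 CPM. Both Myf5 libraries still lay above every GFP library. The log2 fold change was 8.97 ± 0.85 for MyoD (edgeR adjusted p = 0.00016) and 5.27 ± 0.98 for Myf5 (adjusted p = 0.02). The Myf5 call was lost against 1x GFP alone (4.66, adjusted p = 0.17), without the library of an MOI of 15 (5.09, adjusted p = 0.058), 30 (5.31, 0.057) or 60 (5.26, 0.056), and without 2x Myf5 (3.23, 0.23).

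Musk, the kinase itself (ENSMUSG00000057280.8), stayed low in all libraries. It stood at 0.0506, 0.0560, 0.0894 and 0 CPM along the MOI series and at 0.110 CPM in 1x GFP, 0.335 and 0.378 CPM with MyoD, and 0.0732 and 0.219 CPM with Myf5. These values rest on 13, 56 and 20 counts in the GFP, MyoD and Myf5 groups, and Musk did not reach the filter of 1 CPM in at least 2 libraries. In the fit without a filter on low counts it was higher with MyoD, by 2.29 ± 0.61 on the log2 scale (edgeR adjusted p = 0.018). With Myf5 the same fit gave 1.00 ± 0.67 (adjusted p = 0.48).

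Agrn, the gene of the nerve and muscle proteoglycan agrin (ENSMUSG00000041936.10), did not follow the others. It was abundant in GFP cells, at 87.9, 126, 125 and 173 CPM at an MOI of 15, 30, 60 and 120, but at 47.5 CPM in 1x GFP. MyoD libraries held 47.1 and 45.8 CPM, Myf5 libraries 56.2 and 93.4 CPM and the untransduced library 40.4 CPM. Both MyoD libraries lay below all 5 GFP libraries, by a narrow margin from 1x GFP, an order that 28.2% of all genes shared. Against all GFP libraries Agrn was lower with MyoD by a log2 value of -1.21 ± 0.42 (edgeR adjusted p = 0.046). Against 1x GFP alone the difference was -0.02 ± 0.37 (adjusted p = 0.97). The call was also lost when any library of the GFP, MyoD or Myf5 groups other than 1x GFP was left out, with adjusted p from 0.052 to 0.22.

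Within the MOI series Agrn rose with virus dose, by 0.29 ± 0.03 on the log2 scale per doubling of the MOI (edgeR quasi-likelihood test over 13383 genes, adjusted p = 7e-06). This fit had 1 library at each MOI and 2 residual degrees of freedom. DESeq2 gave 0.29 ± 0.07 (adjusted p = 0.0016), and Agrn was level between an MOI of 30 and 60 (126 and 125 CPM). In the edgeR fit Agrn was the 1 gene called of the 5 tested, where 4.06% of all genes were called higher along the series. The MOI libraries together lay above 1x GFP by 1.38 ± 0.37 (edgeR adjusted p = 0.029), a comparison in which 12.1% of all genes were called higher. The labels do not say which MOI the 1x dose corresponds to. Chrna1, Chrnb1, Chrng and Lrp4 had slopes of -0.15 ± 0.13, 0.10 ± 0.06, -0.12 ± 0.11 and -0.09 ± 0.06 per doubling, and none passed the test.

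**Figure D3:**
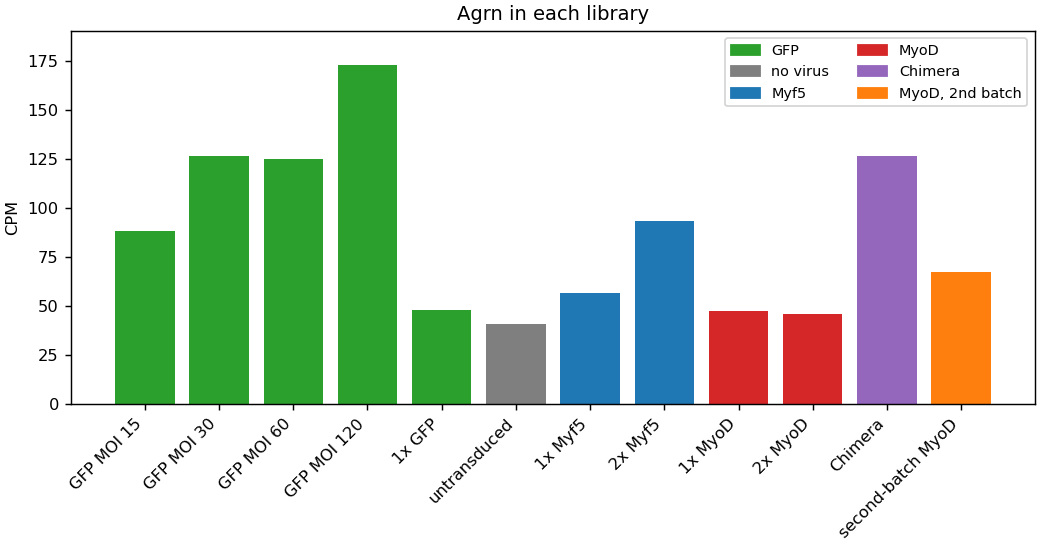
Agrn in CPM (vertical axis, from 0) in each of the 12 libraries (horizontal axis), coloured by virus, 1 bar a library. The GFP libraries run from 87.9 to 173 CPM in the MOI series, while 1x GFP, at 47.5 CPM, lies close to the MyoD libraries.

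Over the 8 genes that passed the filter, MyoD raised 7 and lowered 1 against GFP. In that comparison 21.4% of all 13825 genes were called higher and 20.9% lower. Chrnd, Rapsn and Dok7 passed the filter only through libraries with a muscle factor, so their calls follow in part from having been tested. Of the 5 that passed in GFP libraries alone, Chrna1, Chrnb1, Chrng and Lrp4 were higher and Agrn was lower. The subunits had a median log2 fold change of 5.39 (4 tested, 2.45 to 8.68) and the clustering genes 4.94 (4 tested, -1.21 to 8.97), beside a median of -0.025 over all genes. These medians follow in part from the filter, which left out Chrne and Musk and let in Chrnd, Rapsn and Dok7. Without a filter on low counts the median over all 10 genes was 3.51, beside 0 over all genes. Against 1x GFP alone the same 7 genes were higher and none was lower (15.1% of all genes called higher). The 7 genes were each higher in both MyoD libraries than in all 5 GFP libraries, which held for 23.2% of all genes.

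Myf5 raised 6 of the 8 genes against GFP, where 3.81% of all genes were called higher. These were Chrnb1, Chrnd, Chrng, Rapsn, Lrp4 and Dok7. Of them, Chrnd, Rapsn and Dok7 passed the filter only through libraries with a muscle factor, so their calls follow in part from having been tested. The median was 4.43 for the subunits (-0.80 to 7.20) and 3.74 for the clustering genes (-0.54 to 5.27), beside -0.0028 over all genes. These medians, too, follow in part from the filter. Without it the median over all 10 genes was 2.67, beside 0 over all genes. Agrn had a value of -0.54 ± 0.41 (edgeR adjusted p = 0.4) against all GFP libraries and of 0.64 ± 0.38 (adjusted p = 0.42) against 1x GFP alone, and so changed sign without passing either test. With 1x GFP alone as control 5 genes were called higher, without Dok7, beside 1.03% of all genes. The comparisons of MyoD and of Myf5 with GFP share their control libraries.

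**Figure D4:**
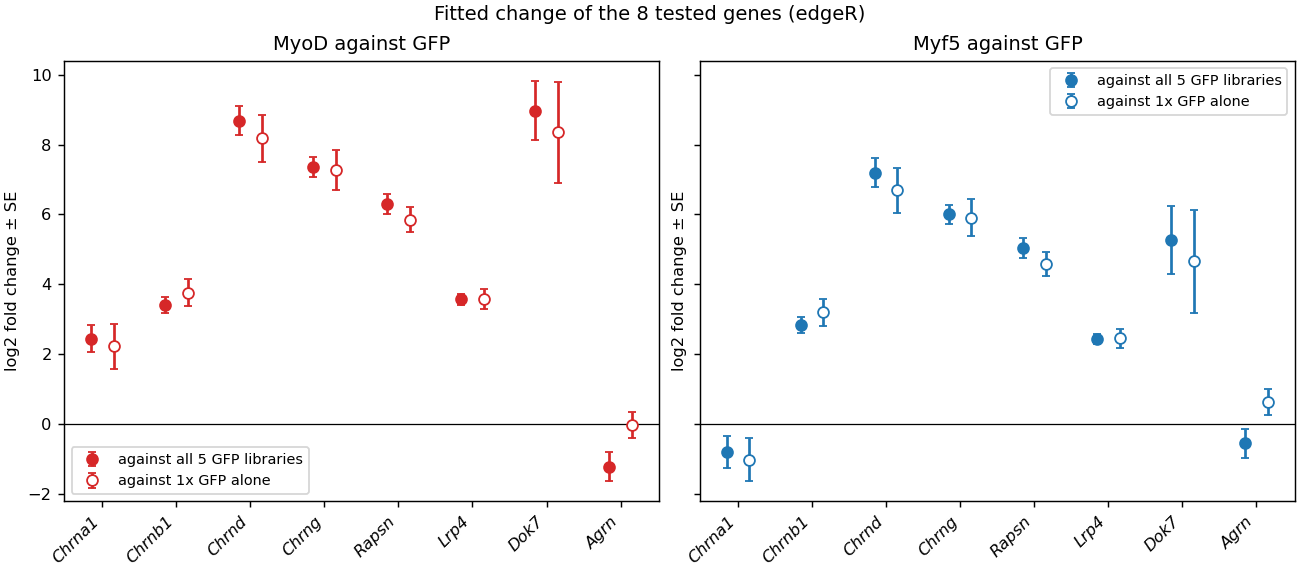
Fitted log2 fold change with its standard error (vertical axis) of the 8 tested genes (horizontal axis) for MyoD (left) and Myf5 (right), against all 5 GFP libraries (filled) and against 1x GFP alone (open). Agrn moves from -1.21 to -0.02 with MyoD when the control changes, while Chrnd, Chrng and Rapsn stay above 4.5 with either control and factor.

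Set directly against Myf5, MyoD gave higher levels of 5 of the 8 genes, where 4.21% of all genes were called higher. Chrnd, Rapsn and Dok7 passed the filter only through libraries with a muscle factor, so calls of these genes follow in part from having been tested. The log2 difference was 3.69 ± 0.77 for Dok7 (edgeR adjusted p = 0.034), 3.25 ± 0.53 for Chrna1 (0.023), 1.36 ± 0.30 for Chrng (0.039), 1.28 ± 0.30 for Rapsn (0.044) and 1.13 ± 0.19 for Lrp4 (0.023). Chrnd, at 1.48 ± 0.38 (edgeR adjusted p = 0.055), Chrnb1, at 0.56 ± 0.28 (0.26), and Agrn, at -0.67 ± 0.47 (0.42), did not pass. With the dose as a term of the fit 6 genes were called, Chrnd among them (1.47 ± 0.28, edgeR adjusted p = 0.018), beside 6.68% of all genes called higher. These calls rest on 2 libraries a factor. None was left without the GFP library of an MOI of 30 or 60, or without 2x MyoD, 1x Myf5 or 2x Myf5, and 2 were left without the library of an MOI of 15 or 120. In those fits with no call, the log2 differences of Dok7, Chrna1, Chrng, Rapsn and Lrp4 ran from 0.82 to 5.74. The lowest was that of Lrp4 without 2x MyoD and the highest that of Dok7 without 2x Myf5.

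The share of the MyoD rise that Myf5 reached was set out at the same labelled dose, as the CPM above the GFP mean. The labels do not say whether 1x is equal between the viruses. At 1x and 2x the introduced genes stood at 309 and 617 CPM (Myod1) and at 150 and 249 CPM (Myf5). The shares were uneven among the genes. Chrnb1 came highest, with 65.7% at 1x and 65.2% at 2x. Chrnd (37.9% and 35.4%), Chrng (38.1% and 40.0%), Rapsn (45.9% and 37.7%) and Lrp4 (42.9% and 40.2%) lay close together, across subunits and clustering genes alike. Dok7 reached 3.07% and 9.63%, and Chrna1, which lay below the GFP mean with Myf5, had -31.6% and -5.18%. The median over the 7 genes was 38.1% at 1x and 37.7% at 2x, beside 34.2% and 32.1% over all 2960 genes that MyoD raised. These shares are descriptions without a test, and the direct comparison of the factors is the one given above.

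**Figure D5:**
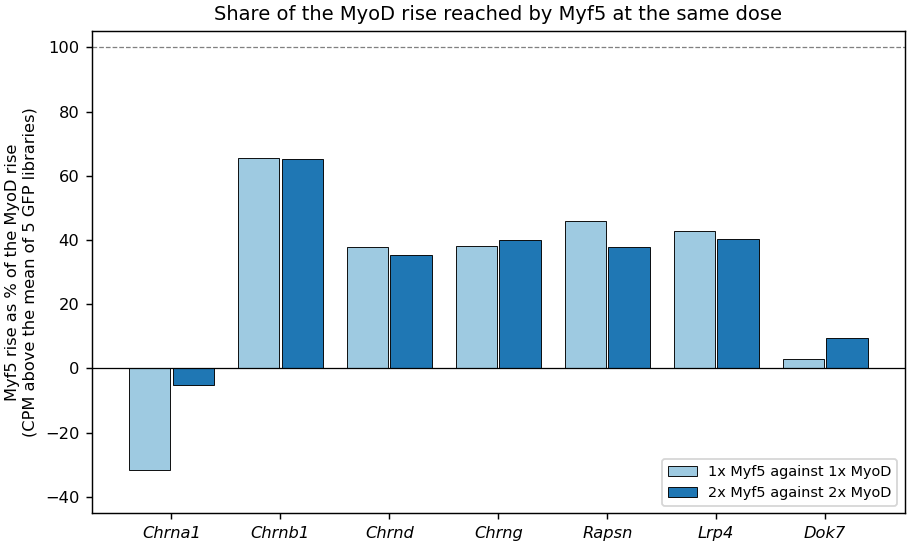
Myf5 rise as a percentage of the MyoD rise (vertical axis) for the 7 genes that MyoD raised (horizontal axis), at 1x (light) and 2x (dark), each from 1 library of each factor and the mean of 5 GFP libraries. The dashed line marks 100%, an equal rise, and Chrnb1 at 65.7% and 65.2% comes nearest to it.

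Dose within a factor was compared between 1 library at 1x and 1 at 2x. The introduced genes themselves were 2.00-fold (Myod1) and 1.67-fold (Myf5) higher at 2x. Chrng followed closely, at 1.73-fold with MyoD and 1.81-fold with Myf5, as did Chrnd (1.76 and 1.64) and Chrnb1 (1.63 and 1.58). Lrp4 (1.44 and 1.31) and Rapsn (1.30 and 1.07) rose by less. Chrna1 was 3.15-fold higher with MyoD and 1.25-fold with Myf5, and Dok7 2.46-fold and 7.23-fold, the latter from 0.469 to 3.39 CPM. As a common effect of 2x over 1x, no gene of the 8 passed edgeR's test at an adjusted p under 0.05, in a fit that called 0.0217% of all genes. The lowest was Chrng with 0.85 ± 0.10 on the log2 scale (edgeR adjusted p = 0.058). At an unadjusted p under 0.05 there were 6, a count that cannot be set against a share over all genes. DESeq2 called 4 genes in this comparison, Chrng, Lrp4, Chrnb1 and Dok7, for which no share over all genes is given.

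In cells without virus the 10 genes lay within the GFP range or below it. Chrng was at 0.536 CPM, under all 5 GFP libraries, a log2 difference of -1.77 ± 0.51 (edgeR adjusted p = 0.067). Chrnd was at 0.0275 CPM, from 2 counts. The other values were 1.99 CPM for Chrna1, 7.01 for Chrnb1, 0.591 for Rapsn, 0.0550 for Musk, 6.17 for Lrp4 and 0.0413 for Dok7. None of the 8 tested genes was called by edgeR (8.35% of all genes were), and 2 had an unadjusted p under 0.05. DESeq2 called 1, Chrng (-1.76, adjusted p = 0.00055). With edgeR, Chrng was called when any MyoD or Myf5 library was left out (adjusted p = 0.039 to 0.045), and Agrn when 1x GFP was (-1.61, adjusted p = 0.011). The untransduced group is 1 library, assumed in the fit to vary like the others. No share over all genes is given for the counts by DESeq2 or by unadjusted p.

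In the second table, Chimera gave lower levels than second-batch MyoD for 7 of the 8 genes with at least 50 counts over both libraries. The labels call that MyoD virus balanced against Chimera and do not give the batch of the Chimera virus. Each group is 1 library, so intervals cover counting error only and there is no replicate check. Chrna1 had 6.10 CPM with Chimera and 16.0 with MyoD, or 38.1% (exact 95% binomial interval 31.4% to 46.1%). Chrnd had 42.4 and 86.8 CPM (48.8%, 45.3% to 52.6%) and Chrng 99.7 and 196 CPM (51.0%, 48.6% to 53.6%). Chrnb1 had 33.6 and 57.4 CPM (58.6%, 53.7% to 63.9%) and Dok7 20.1 and 33.9 CPM (59.1%, 52.8% to 66.2%). The scaffold and agrin receptor genes came closest to MyoD, with Lrp4 at 21.8 and 30.7 CPM (71.2%, 63.6% to 79.6%) and Rapsn at 21.4 and 26.7 CPM (79.9%, 71.1% to 89.8%). Agrn was the exception, at 127 CPM with Chimera and 67.1 with MyoD (189%, 178% to 200.4%). Over the 13412 genes with that many counts, the interval lay below equality for 31.2% and above it for 28.1%. The median ratio was 0.589 for the 8 genes and 0.987 over all. Musk had 8 counts with Chimera and 2 with MyoD.

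The MyoD libraries of the 2 virus batches, both at 1x, differed most in Chrna1, Dok7 and Lrp4 among the 8 genes with at least 50 counts. With mitochondrial genes left out of the totals, the second batch over the first gave a ratio of 3.50 for Chrna1 (counting interval 3.03 to 4.04), above that of 98.0% of the 14364 genes compared. Dok7 gave 2.50 (2.28 to 2.74), and Lrp4 gave 0.456 (0.421 to 0.492), above only 3.44% of genes. The ratio was 1.49 for Agrn, 1.24 for Chrnb1, 1.07 for Chrnd, 0.927 for Chrng and 0.873 for Rapsn, beside a median of 1.02 and a range from 0.524 to 2.07 for the middle 90 percent of genes. Musk had 2 counts in the second batch and 27 in the first. The tables differ in more than the virus batch, since Chrna1 counts are whole in both libraries of the second table and in 1 of 10 of the first, and the part of the processing in these ratios was not tested.

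The first-table libraries gave the 8 tested genes different degrees of likeness to Chrng. As a description over 10 libraries that share the same controls, Pearson's r of log2(CPM + 0.5) with Chrng was 0.995 for Chrnd, 0.992 for Lrp4, 0.984 for Rapsn, 0.981 for Chrnb1 and 0.892 for Dok7. It was 0.472 for Chrna1 and -0.383 for Agrn. The libraries form separate groups with and without a muscle factor, so these values mainly reflect the step between them. Among all other genes tested, the 4 most like Chrng were Fam117a (r = 0.995), Mycl (0.992), Rtn2 (0.991) and Lpgat1 (0.990). No such ranking is given for Chrne, which had 3 counts.

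Other genes of the synapse were taken from 5 lists. Of 11 neuronal-type receptor subunits only Chrna4 passed the filter, and it did so only through the MyoD libraries, so its call follows in part from having been tested. Chrna4 had 0 to 4 counts in each GFP library and stood at 6.59 and 22.9 CPM with 1x and 2x MyoD, against 0.307 and 0.964 CPM with Myf5 (3.07 ± 0.98 against GFP, edgeR adjusted p = 0.089). With MyoD it was higher than with GFP by 7.63 ± 0.79 on the log2 scale (edgeR adjusted p = 0.00024). The fitted value was 6.81 (edgeR adjusted p = 0.00014) without 1x GFP, the library that had no Chrna4 count, and 12.63 (0.0038) against that library alone, where it depends on the prior count. It exceeded Myf5 with MyoD by 4.56 ± 0.82 (edgeR adjusted p = 0.026), a call lost without either Myf5 library or the GFP library of an MOI of 15, 30 or 60 (adjusted p = 0.053 to 0.20). Without either MyoD library Chrna4 did not pass the filter.

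Downstream of MuSK, 24 of 26 signalling and cytoskeletal genes were tested. With MyoD 9 were higher and 2 lower, beside 21.4% and 20.9% of all genes. With Myf5 2 were higher and none lower, beside 3.81% and 2.29% of all genes, and DESeq2 called 4 higher and none lower. The median log2 change was 0.09 and 0.03. Against 1x GFP alone MyoD gave 7 higher and 4 lower, beside 15.1% and 15.4% of all genes, and Myf5 gave none with edgeR, with 3 at an unadjusted p under 0.05. The changes were small beside those of the receptor genes. Dvl3, a Dishevelled protein that binds MuSK, was higher by 0.67 ± 0.09 with MyoD (edgeR adjusted p = 0.00061), and Apc, which links receptor clusters to microtubules, by 0.39 ± 0.05 with MyoD (0.00061) and 0.31 ± 0.05 with Myf5 (0.011). Apc stood at 139 to 149 CPM with GFP and at 182 and 185 CPM with 1x and 2x MyoD. The untransduced library, at 160 CPM, lay above every GFP library, and second-batch MyoD, at 148 CPM, lay within the GFP range. Pak1, a kinase activated in MuSK signalling, was higher by 0.47 ± 0.06 with Myf5 (edgeR adjusted p = 0.0045). Its level was 76.5 to 80.9 CPM with GFP and 101 and 113 CPM with Myf5, but the untransduced library, at 112 CPM, was as high as 2x Myf5. Apc and Pak1 missed the threshold with Myf5 against 1x GFP alone (edgeR adjusted p = 0.056 for each) and without 2x Myf5 (0.22 and 0.095), and Apc also without 1x Myf5 (0.063).

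Of 11 genes of synaptic nucleus transcription, 9 were tested. With MyoD 2 were higher and 2 lower, shares near the 21.4% and 20.9% of all genes. With Myf5 1 was higher and 1 lower, beside 3.81% and 2.29% of all genes, and DESeq2 called 2 and 2. Erbb3, a neuregulin receptor, was higher with MyoD by 4.87 ± 0.45 (edgeR adjusted p = 0.00014), and Hdac4, a histone deacetylase that responds to denervation in muscle, by 0.66 ± 0.06 (0.00018). Hdac4 stood at 19.4 to 21.1 CPM with GFP and at 31.5 and 30.3 CPM with 1x and 2x MyoD. Second-batch MyoD, at 23.4 CPM, lay close to the untransduced library, at 22.9 CPM. With Myf5, Hdac4 was higher by 0.44 ± 0.06 (edgeR adjusted p = 0.0082) and Erbb2, another neuregulin receptor subunit, lower, at -0.30 ± 0.06 (0.027). Erbb2 stood at 57.1 to 66.1 CPM with GFP and at 51.9 and 47.5 CPM with Myf5, but the untransduced library, at 50.8 CPM, lay between the Myf5 libraries, and second-batch MyoD held 62.8 CPM. The Erbb2 call with Myf5 was lost without any 1 of the MOI libraries (edgeR adjusted p = 0.059 to 0.073), without 1x Myf5 (0.070) or 2x Myf5 (0.38), and without a filter on low counts (0.055). That of Hdac4 with Myf5 was lost without 1x Myf5 (edgeR adjusted p = 0.0504) or 2x Myf5 (0.17). Against 1x GFP alone MyoD gave 3 higher and 4 lower, beside 15.1% and 15.4% of all genes, and Myf5 gave none with edgeR, with 4 at an unadjusted p under 0.05.

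Of 24 genes of the synaptic basal lamina and membrane scaffold, 18 were tested. With MyoD 6 were higher and 5 lower, beside 21.4% and 20.9% of all genes. With Myf5 2 were higher, beside 3.81%, and DESeq2 called 3 higher and 2 lower there. Lama5, a laminin chain of the synaptic basal lamina, was higher by 6.67 ± 0.40 with MyoD (edgeR adjusted p = 2.6e-05) and 4.63 ± 0.40 with Myf5 (0.00072). Its level was 0.268 to 0.784 CPM in GFP cells, 36.3 and 66.8 CPM with MyoD and 7.82 and 17.7 CPM with Myf5, without overlap. It passed the filter only through the libraries with a muscle factor, so its calls follow in part from having been tested. Dtna, which encodes alpha-dystrobrevin of the dystrophin complex, was higher by 1.09 ± 0.07 with MyoD (edgeR adjusted p = 3.7e-05) and 0.63 ± 0.07 with Myf5 (0.0029), the latter lost without 2x Myf5 (0.075).

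Of 11 genes of congenital myasthenia and receptor folding, 10 were matched and 8 were tested. With MyoD 2 were higher and 1 lower, beside 21.4% and 20.9% of all genes, and with Myf5 edgeR called none, beside 3.81% called higher and 2.29% lower. With Myf5 2 had an unadjusted p under 0.05, and DESeq2 called 1 higher and 1 lower, counts without a share over all genes. Ric8a, a chaperone of G-protein alpha subunits, was higher with MyoD by 0.74 ± 0.09 (edgeR adjusted p = 0.00053). Hspa5, the endoplasmic reticulum chaperone BiP, was lower with MyoD, at -0.43 ± 0.07 (edgeR adjusted p = 0.0024). Ric8a stood at 48.6 to 57.9 CPM with GFP, 80.2 and 91.7 CPM with 1x and 2x MyoD and 61.5 CPM with second-batch MyoD. Hspa5 stood at 459 to 479 CPM in the MOI libraries, 399 CPM in 1x GFP and 330 and 322 CPM with 1x and 2x MyoD. Second-batch MyoD held it at 389 CPM, and against 1x GFP alone its log2 change with MyoD was -0.28.

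Markers of other cells that carry synaptic genes stayed low, with 1 exception. The summed level of 9 matched neuron markers was 2.99 to 5.42 CPM over the first table, with Chat at 0 in all 12 libraries, and that of 5 macrophage markers was 11.1 to 17.7 CPM, with Adgre1 at 0. The sum of 4 endothelial markers was 0.558 to 1.57 CPM and that of 4 epithelial markers 0.350 to 2.53 CPM. The sum of 8 Schwann and glial markers was 16.8 to 24.6 CPM with GFP, 17.3 CPM in both Myf5 libraries and 25.1 and 50.2 CPM with MyoD, and it was 56.4 and 108 CPM in the second table. Erbb3 rose within that list, from at most 1.03 CPM with GFP to 12.2 and 38.5 CPM with MyoD, while Foxd3 was at 0 in all libraries and Sox10 reached at most 0.0845 CPM in any. The part of these marker genes in the results above was not tested.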

How the data were processed

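The submitters' processing notes name CASAVA 1.8.2, TopHat2 2.0.8 and the genome build mm9. The gene counter and its annotation are not named there. As deposited by the authors, the first table holds expected counts, rounded here for the fits, since 1982 to 2767 genes a library had values that were not whole numbers. The second, as deposited, holds whole-number counts. Tests were run within a table, because 37 mitochondrial genes lack counts in the first table but hold 4.05% and 4.18% of the second. The ratios of the MyoD libraries of the 2 virus batches cross the tables, with those genes left out of the totals. Symbols came from GENCODE vM21 (32610 of 37287 IDs), whose union of exons gave the lengths; IDs without a symbol held 1.26% to 1.45% of counts. That annotation is of another build, so no gene positions are given.

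In R 4.3.3, edgeR 4.0.16 (quasi-likelihood test, two-sided, TMM normalization, Benjamini-Hochberg adjusted p under 0.05) was fitted to all genes with at least 1 CPM in at least 2 libraries, in 4 groups (GFP 5, MyoD 2, Myf5 2, untransduced 1) with 6 residual degrees of freedom. Libraries of a group differ in viral dose, and nothing says whether they came from separate cultures, so p-values measure the spread between these libraries. Standard errors were derived from the F statistic. For 1x GFP as the sole control, the MOI libraries formed a separate group of the model. DESeq2 1.42.0 and other filters and scalings were alternatives. The shares of all genes called are edgeR's. None is given for DESeq2 or for unadjusted p-values, so those counts cannot be set against all genes. The fitting code was tested on simulated data. Ratios of 2 libraries carry exact 95% binomial intervals (scipy 1.17.1). All 10 genes were named throughout. From the other lists the 2 called genes with the smallest p with MyoD and with Myf5 were named, and for likeness the 4 highest correlations. The genes and lists were chosen with earlier results of these data known. No sequence of 50 bases was shared between the exons of the 10 genes.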

Additional observations from a re-analysis of the deposited data

Results flagged for a closer look

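Chrne in 1x GFP stood apart from the other 4 GFP libraries, with 0.0245 CPM from 2 counts where the others had 0. With 0 in the other 4, the criterion used marks any count in a single library, and the 1x GFP library is also the deepest of the 5. The change of Agrn from 1x to 2x went in opposite directions with the factors, 0.973-fold with MyoD and 1.66-fold with Myf5. The difference between these ratios was not tested, and each rests on 1 library at each dose.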

How the results depend on the processing

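The calls of MyoD against GFP and of Myf5 against GFP kept counts of 7 to 9 and of 5 to 6 genes under DESeq2, upper-quartile scaling, other filters, the 1x GFP control and leaving out any 1 library (8 and 6 as reported). Without the 4 MOI libraries, an alternative added after seeing the data, the fit has 2 residual degrees of freedom and no gene passed edgeR's adjusted threshold in any of the 4 comparisons of groups. The counts were 0 for MyoD against GFP, 0 for Myf5 against GFP and 0 for MyoD against Myf5, with 7, 5 and 7 genes at an unadjusted p under 0.05 and log2 fold changes against GFP from -0.03 (Agrn) to 8.36 (Dok7) for MyoD and from -1.01 (Chrna1) to 6.69 (Chrnd) for Myf5. For MyoD against Myf5, leaving out 1 library gave 0 to 6 genes (5 as reported). For untransduced cells DESeq2 gave 1 gene, and leaving out 1 library gave 0 to 1 (0 as reported). For 2x against 1x, DESeq2 gave 4 genes and no filter on low counts gave 1. The median share of the MyoD rise that Myf5 reached, averaged over doses, was 39.0% and became 38.5% with TMM-scaled totals. The log2 ratio of Chrng to Chrne differed from GFP by 6.71 to 7.67 for MyoD and 5.51 to 6.36 for Myf5 when 1 library was left out, where the design cannot reach an exact permutation p under 0.0667. The counts of genes by DESeq2 or by unadjusted p have no share over all genes beside them. Depth limits Chrne and Musk, with 3 and 93 counts over the first table. No paired analysis was possible because the labels give no shared replicate numbers; doses were used as a term instead.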
